A study of Mus musculus with 18 samples.

Results

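Dppa2, Dppa3, Dppa4, Dppa5a, Ooep, Khdc3, Tcl1, Triml1 and Triml2 are genes of the oocyte, the cleavage embryo and the blastocyst, most of which mouse embryonic stem cells also transcribe. They were taken by name from the deposited table, where all 9 were found among 54532 genes, and 8 of the 9 passed the filter on low values. Dppa3 did not pass, and it is described by its reads alone. Of 54532 genes, 17200 were tested.

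RNA was sequenced from ES-E14TG2a, a stem cell line derived from mouse blastocysts, in 18 libraries. Arf-B cells at day 8, Arf-C cells at day 8, Ctrlv2 cells at day 8, Arf-B cells at day 0, Arf-C cells at day 0 and Ctrlv2 cells at day 0 were each represented by 3 libraries. Day 0 cells came from stem cell culture on gelatine with leukaemia inhibitory factor. By day 8 all 3 lines had received activin A at 20 ng/mL with Matrigel from day 0, then retinoic acid (5, in a unit the labels write as μM/ml) and FGF10 at 10 ng/mL from day 4, a protocol aimed at posterior foregut endoderm. The title of the series names p19Arf, the protein made from the alternative reading frame of Cdkn2a. The genotype label of all 18 libraries reads wild type, also for the Arf lines. The sources used here do not give how these lines were made or whether each is a single clone. No label calls the replicates separate cultures, so p-values measure the spread between these libraries, which may be technical.

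Dppa genes (developmental pluripotency associated) were named for their restriction to pluripotent cells and germ cells. Dppa2 and Dppa4 encode SAP-domain chromatin proteins that bind each other and keep a set of developmental promoters free of DNA methylation. Dppa5a, Ooep and Khdc3 encode small proteins with KH-type RNA-binding domains, and the products of Ooep and Khdc3 belong to the subcortical maternal complex of the oocyte and early embryo. Dppa3, also called Stella, protects the maternal genome from demethylation and restrains the methylation factor Uhrf1. Tcl1 encodes a coactivator of Akt kinases, and Triml1 and Triml2 encode relatives of the tripartite-motif ubiquitin ligases.

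By position the genes form 3 close pairs. Dppa5a (chr9:78367052-78368177) and Ooep (chr9:78376109-78378725) lie 7.93 kb apart on the minus strand, and Dppa4 (chr16:48283733-48294237) and Dppa2 (chr16:48303908-48319723) lie 9.67 kb apart on the plus strand. Triml1 (chr8:43129807-43141486, minus) and Triml2 (chr8:43180541-43193881, plus) point away from each other across 39.0 kb, and the stem cell gene Zfp42 starts 101 kb beyond the end of Triml2. Khdc3 (chr9:73101836-73104438) shares its chromosome with Dppa5a but lies 5263 kb away from it, so these genes are not neighbours. Dppa3 (chr6:122626410-122630272) and Tcl1 (chr12:105216750-105222793) stand alone. All positions are those of the table, on mm10, and for all 9 genes they are the same as in GENCODE release M21.

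The sequence before the RefSeq start site (assembly GRCm38.p6) was at hand for 5 of the 9 genes and is shown for those 5, since Triml1, Triml2, Ooep and Tcl1 fell by day 8 in all 3 lines and Khdc3 rose in Ctrlv2 cells. Each run is written 5′ to 3′ on the strand of the gene. It is the part of the 250 bases before the start that lies outside annotated exons. The run of Khdc3 lies within the annotated span of the gene, between its exons, while the other runs lie outside their genes. Capitals mark CCAAT (the CCAAT box), GGGCGG (the GC box), AAGGTCA (the half-site of Esrrb) and ATGCAAAT (the octamer of Oct factors) on either strand, so that ATTGG and CCGCCC count too.
Triml1, chr8:43141487-43141736: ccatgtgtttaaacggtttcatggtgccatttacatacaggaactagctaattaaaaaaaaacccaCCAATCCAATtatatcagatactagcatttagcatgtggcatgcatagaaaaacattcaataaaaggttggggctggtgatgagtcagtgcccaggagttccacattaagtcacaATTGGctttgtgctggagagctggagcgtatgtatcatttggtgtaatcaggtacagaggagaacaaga
Triml2, chr8:43180286-43180535: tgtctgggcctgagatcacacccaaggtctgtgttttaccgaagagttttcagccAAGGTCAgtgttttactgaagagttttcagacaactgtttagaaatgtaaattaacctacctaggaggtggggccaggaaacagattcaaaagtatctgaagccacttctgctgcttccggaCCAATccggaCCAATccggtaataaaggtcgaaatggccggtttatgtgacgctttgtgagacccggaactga
Ooep, chr9:78378726-78378838: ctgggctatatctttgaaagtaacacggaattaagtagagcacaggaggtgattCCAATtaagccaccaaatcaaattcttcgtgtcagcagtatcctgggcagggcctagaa
Tcl1, chr12:105222794-105222987: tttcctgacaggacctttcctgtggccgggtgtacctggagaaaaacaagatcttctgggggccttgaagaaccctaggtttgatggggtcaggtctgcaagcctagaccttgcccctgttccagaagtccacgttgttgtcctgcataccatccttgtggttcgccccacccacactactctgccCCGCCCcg
Khdc3, chr9:73102205-73102397: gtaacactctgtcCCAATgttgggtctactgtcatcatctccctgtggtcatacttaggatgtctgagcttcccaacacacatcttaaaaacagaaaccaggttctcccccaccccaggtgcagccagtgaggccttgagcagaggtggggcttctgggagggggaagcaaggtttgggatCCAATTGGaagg
In the full 250 bases CCAAT occurred 3 times before Triml1, 2 times before Triml2, 1 time before Ooep, 0 times before Tcl1 and 4 times before Khdc3, where 2 of the matches overlap and 1 lies in the exonic stretch not shown. Of 32851 promoter windows of the same length 33.8% held it. The octamer, present in 1.6% of windows, was found before none of the 5 genes. AAGGTCA, present in 4.08%, was found before Triml2, 195 bases upstream of its start. GGGCGG, present in 32.7%, was found 2 times before Tcl1 and 1 time before Ooep, the site of Ooep and 1 site of Tcl1 in the exonic stretch not shown. CpG dinucleotides numbered 2 (Triml1), 8 (Triml2), 11 (Ooep), 7 (Tcl1) and 0 (Khdc3), against a median of 6 over all windows. The motifs were chosen after these sequences had been read, and a match is a description of letters only.

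Libraries held 10432590 to 22222425 reads on genes at day 8 and 22945409 to 33311220 at day 0, so day 8 values rest on fewer reads. FPKM is a fragment count scaled to gene length and library size, and 3 reads on 1 kb equal 0.093 to 0.282 FPKM here. At day 8 the 5 stem cell markers Pou5f1, Nanog, Sox2, Zfp42 and Esrrb summed to 141.9 to 196.7 FPKM in Arf-B, 116.6 to 219.1 FPKM in Arf-C and 40.7 to 47.2 FPKM in Ctrlv2 libraries. In each group 0 of 5 genes were at 0 in every library, but the lowest Nanog value in Ctrlv2 was 0 FPKM. All 5 were called higher in both Arf lines, beside 16.3% of all genes tested in Arf-B and 16.8% in Arf-C. Of the endoderm markers, Gata4 (log2 -1.82 in Arf-B and -1.70 in Arf-C), Gata6 (log2 -1.19 and -1.02) and Sox17 (log2 -0.81 and -0.79) were lower than in Ctrlv2 cells. Foxa2 was higher in Arf-C (log2 0.45, SE 0.12, adjusted p = 0.0109) and not called in Arf-B (log2 0.11, adjusted p = 0.525). The 6 extraembryonic endoderm markers (Lama1, Sparc, Col4a1, Dab2, Pdgfra, Cubn) summed to 68.2 to 69.9 FPKM in Arf-B, 67.2 to 73.9 FPKM in Arf-C and 280.2 to 381.1 FPKM in Ctrlv2 libraries. Their sum was already lower in the Arf lines at day 0, at 39.3 to 48.4, 41.5 to 46.95 and 118.8 to 137.3 FPKM in Arf-B, Arf-C and Ctrlv2 libraries. Of the 5 tested, 3 (Sparc, Lama1 and Col4a1) were called lower at day 0 in each Arf line. Over all genes 20% were lower in Arf-B and 21.5% in Arf-C. Most of these markers, though not all, differed between the Arf lines and Ctrlv2 at day 8, as did most of the genes described below. The part of the markers in the results on day 8 was not tested. In bulk RNA fewer cells of a type and less RNA per cell cannot be told apart.

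At day 8 both Arf lines held more of 6 of the 8 tested genes than Ctrlv2 cells: Dppa5a, Ooep, Dppa4, Tcl1, Triml1 and Triml2. Khdc3 was lower in both lines, and Dppa2 was lower in Arf-C cells by the test but with overlapping values. Counted by call, 6 were higher and 1 lower in Arf-B cells, where 33.2% of all genes tested were called, 16.3% higher and 16.9% lower. In Arf-C cells 6 were higher and 2 lower, where 33.6% of all genes were called, 16.8% in each direction. The median log2 fold change of the 8 genes was 0.83 in Arf-B and 0.85 in Arf-C, beside 0.01 in both lines over all genes. Both comparisons use the same 3 Ctrlv2 libraries. With every library scaled to the same sum of FPKM, the share of all calls that were higher moved to 69.0%, against 49.1%, in Arf-B and to 63.6%, against 50.0%, in Arf-C, while these 6 genes stayed higher and Khdc3 stayed lower.

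**Figure D1:**
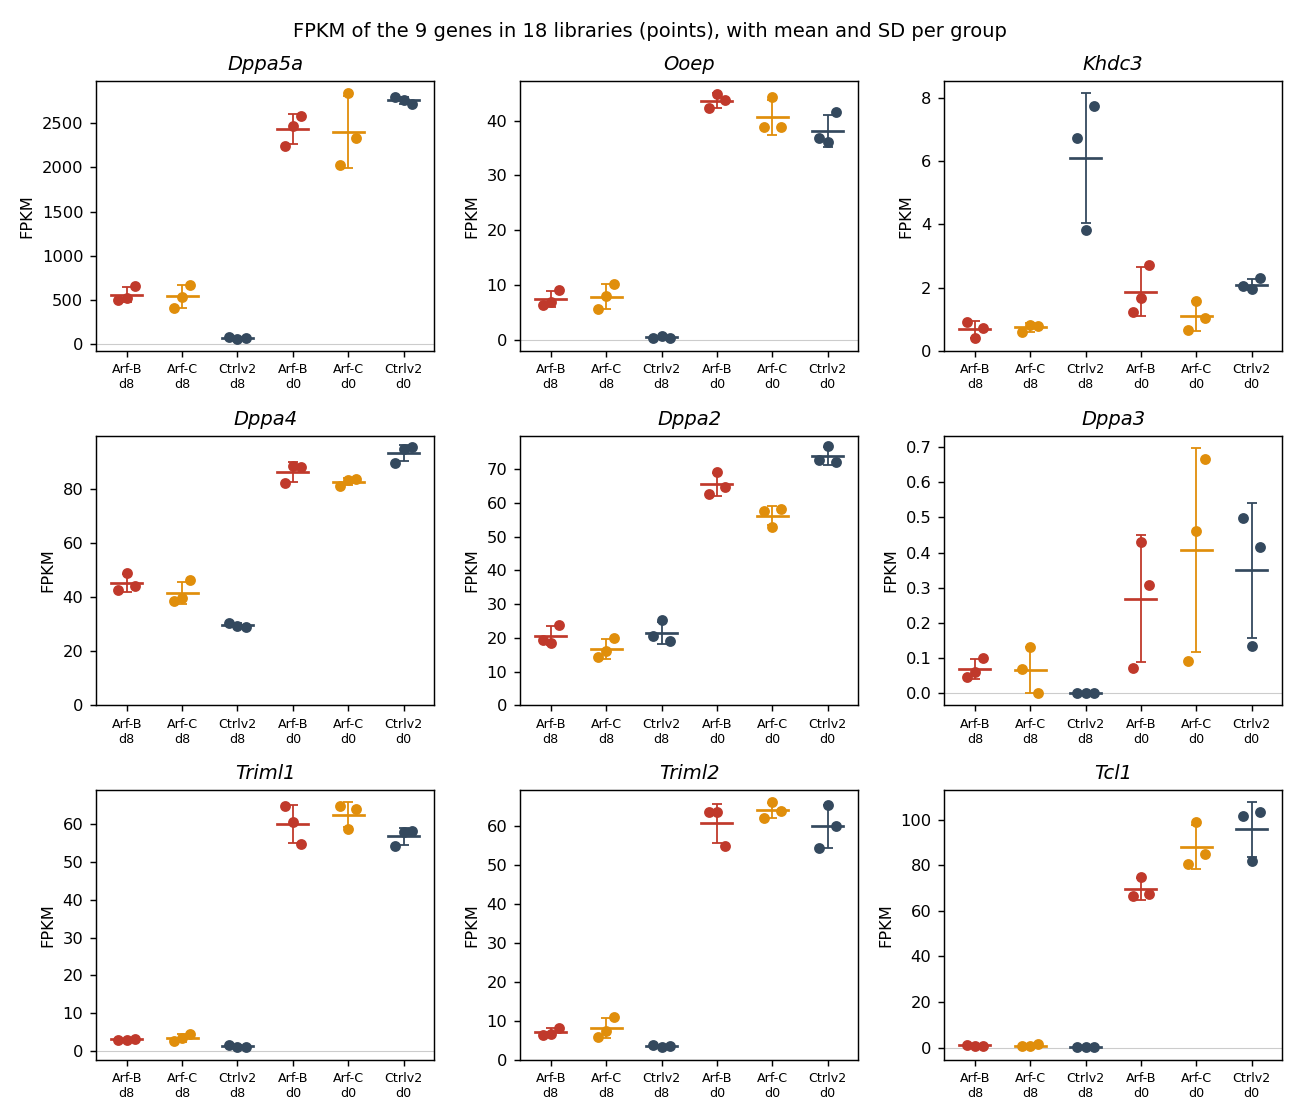
Each panel plots FPKM (vertical axis, linear) of 1 gene in the 18 libraries by line and day, with points for libraries, a bar for the group mean and whiskers for the SD (n = 3). At day 8 the Arf points of Dppa5a lie between 410.5 and 665.3 FPKM and the Ctrlv2 points between 58.6 and 79.8, while Khdc3 shows the opposite order.

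Dppa5a, an RNA-binding protein gene and by far the most abundant of the 9, was at 492.4, 521.2 and 659.2 FPKM in Arf-B, 410.5, 531.8 and 665.3 FPKM in Arf-C and 79.8, 58.6 and 68.5 FPKM in Ctrlv2 cells at day 8. All 6 Arf libraries lay above all 3 of Ctrlv2. The log2 fold change on the scale of log2(FPKM + 1) was 3.00 (SE 0.16, adjusted p = 3.25e-09) in Arf-B and 2.92 (SE 0.16, adjusted p = 4.2e-09) in Arf-C by limma. At day 0 it was at 2249, 2466 and 2586 FPKM in Arf-B, 2033, 2842 and 2330 FPKM in Arf-C and 2803, 2762 and 2723 FPKM in Ctrlv2 cells, and neither line was called against Ctrlv2 (log2 -0.19 and -0.22, SE 0.16, adjusted p = 0.421 and 0.324). Dppa5a fell by day 8 in every line. Arf-B cells kept 22.9% ± 3.66 and Arf-C cells 22.3% ± 5.31 of their day 0 mean, and Ctrlv2 cells 2.50% ± 0.39 (SD, n = 3). Its near copies Dppa5b and Dppa5c drew 0 to 167 and 0 to 455 reads per library, beside 385 to 54377 on Dppa5a, and how reads were divided among the copies is uncertain. At day 8 Dppa5c had 53, 13 and 0 reads summed over the 3 libraries of Arf-B, Arf-C and Ctrlv2.

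Ooep, the gene for an oocyte protein of the subcortical maternal complex, sits beside Dppa5a and, at a far lower level, was likewise higher in both Arf lines at day 8. At day 8 it was at 6.31, 6.87 and 9.04 FPKM in Arf-B, 5.57, 7.90 and 10.2 FPKM in Arf-C and 0.273, 0.617 and 0.296 FPKM in Ctrlv2 cells. These rest on 273 to 437, 197 to 345 and 8 to 14 reads, and the groups did not overlap. The log2 fold changes were 2.59 and 2.64 (SE 0.16, adjusted p = 1.03e-08 and 7.77e-09), and 3.97 and 4.03 with a pseudocount of 0.1. In reads scaled to library depth the ratio to Ctrlv2 was 19.8 (95% interval 13.9 to 29.3) in Arf-B and 20.9 (14.6 to 31.0) in Arf-C, an exact interval that covers counting error only. In stem cells at day 0 the means were 43.6 ± 1.33, 40.6 ± 3.16 and 38.15 ± 2.91 FPKM in Arf-B, Arf-C and Ctrlv2 cells (SD, n = 3), and neither Arf line was called. Dppa5a and Ooep were each the gene most alike to the other among 11486 ranked genes: their centred values differed by a root mean square of 0.23 over 18 libraries on the scale of log2(FPKM + 1), which compresses the low Ooep values of Ctrlv2 at day 8.

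Khdc3, whose product Filia also belongs to the subcortical maternal complex and protects genome stability in mouse stem cells, went the other way. At day 8 it was at 0.925, 0.394 and 0.734 FPKM in Arf-B, 0.590, 0.827 and 0.798 FPKM in Arf-C and 6.74, 3.81 and 7.75 FPKM in Ctrlv2 cells. The lowest Ctrlv2 library lay above every Arf library. The log2 fold changes were -2.04 and -1.99 (SE 0.22, adjusted p = 4.58e-06 and 5.76e-06). At day 0 it was at 1.24, 1.66 and 2.72 FPKM in Arf-B, 0.663, 1.59 and 1.045 FPKM in Arf-C and 2.04, 1.95 and 2.30 FPKM in Ctrlv2 cells. Only Arf-C was called lower at day 0 (log2 -0.58, SE 0.22, adjusted p = 0.0447), with 0.0562 at the same sum of FPKM, 0.0704 with thinned reads and 0.0917 without the filter. That call was also lost without replicate 1, 2 or 3 of Ctrlv2 (0.0843, 0.0683 and 0.117) and without replicate 1 or 3 of Arf-C (0.184 and 0.0957). Against its own day 0, Khdc3 fell in Arf-B (log2 -0.75, SE 0.22, adjusted p = 0.00707). In Arf-C it was at 0.738 ± 0.13 FPKM at day 8 and 1.10 ± 0.47 FPKM at day 0 (log2 -0.25, adjusted p = 0.333). In Ctrlv2 it rose (log2 1.15, SE 0.22, adjusted p = 0.000235). It is a low gene with 15 to 213 reads per library. A predicted gene, Gm20509, overlaps it.

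Of the other genes of the subcortical maternal complex list, 3 of 7 were tested. Nlrp5, which encodes a core member of the complex in oocytes, had 0 reads in all libraries, and Padi6 had 1 to 24 reads per group. Tle6, another core member, was at 6.47 ± 0.21, 5.54 ± 0.34 and 4.92 ± 0.15 FPKM at day 8 in Arf-B, Arf-C and Ctrlv2 cells, called higher in Arf-B (log2 0.34, SE 0.10, adjusted p = 0.0193). Tle6 was lower in both Arf lines than in Ctrlv2 at day 0, with 1.56 ± 0.38 FPKM in Arf-B, 1.56 ± 0.09 in Arf-C and 3.79 ± 0.71 in Ctrlv2 cells (log2 -0.90 in each). Zbed3 was higher in both lines at day 8 (log2 0.45 and 0.49), and Nlrp4f was lower in Arf-B at day 8 (log2 -0.50, adjusted p = 0.0327). Of 11 oocyte genes 2 passed the filter, Npm2 and Zp3, the latter for a zona pellucida protein. At day 8 Zp3 was at 0.939 ± 0.13, 0.552 ± 0.27 and 0.225 ± 0.077 FPKM in Arf-B, Arf-C and Ctrlv2 cells. At day 0 it was at 15.1 ± 1.22, 16.2 ± 1.34 and 11.8 ± 1.39 FPKM in the same lines. Zp3 was called higher in both Arf lines than in Ctrlv2 at day 8 (log2 0.66 and 0.33, SE 0.12). The same held at day 0 (log2 0.33 and 0.43, SE 0.12). Npm2 rose by day 8 in both Arf lines (log2 0.42 and 0.63, SE 0.16) and was not called in Ctrlv2. Against Ctrlv2 it was lower in Arf-C alone at day 0 (log2 -0.44, SE 0.16) and not called at day 8.

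Dppa4, which pairs with Dppa2 in 1 protein complex, was the most persistent of the falling genes. At day 8 it was at 42.8, 48.9 and 44.0 FPKM in Arf-B, 38.4, 39.8 and 46.1 FPKM in Arf-C and 30.4, 29.3 and 28.95 FPKM in Ctrlv2 cells, with no overlap. The log2 fold changes were 0.59 and 0.47 (SE 0.07, adjusted p = 5.54e-06 and 5.5e-05). Arf-B cells kept 52.4% ± 3.74, Arf-C cells 50.1% ± 5.00 and Ctrlv2 cells 31.7% ± 0.84 of their own day 0 mean (SD, n = 3). At day 0 Dppa4 averaged 86.2 ± 3.61, 82.7 ± 1.33 and 93.3 ± 3.09 FPKM in Arf-B, Arf-C and Ctrlv2 cells. Only Arf-C was called lower there, narrowly (log2 -0.17, SE 0.07, adjusted p = 0.0472). That call was lost in several alternatives, among them the fits that left out Ctrlv2 replicate 2 (adjusted p = 0.106) or replicate 3 (0.129) and those without replicate 1, 2 or 3 of Arf-C (0.116, 0.0762 and 0.0829).

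Dppa2 lies 9.67 kb downstream on the same strand and did not follow. At day 8 it was at 19.4, 18.6 and 23.8 FPKM in Arf-B, 14.2, 16.1 and 19.9 FPKM in Arf-C and 20.4, 25.2 and 19.0 FPKM in Ctrlv2 cells. The groups overlapped in both comparisons. Arf-B was not called (log2 -0.06, SE 0.12, adjusted p = 0.742), and the value turned to 0.06 at the same sum of FPKM. Arf-C was called lower (log2 -0.35, SE 0.12, adjusted p = 0.03), a call lost when Ctrlv2 replicate 2 (adjusted p = 0.153), Arf-C replicate 1 (0.144) or Arf-C replicate 2 (0.0851) was left out, at the same sum of FPKM (0.0992), without the filter (0.0638) and with the compared groups alone (0.118). Its day 0 values were 62.6, 69.1 and 64.7 FPKM in Arf-B, 57.5, 52.9 and 58.05 FPKM in Arf-C and 72.5, 76.8 and 72.2 FPKM in Ctrlv2 cells. Both Arf lines lay below every Ctrlv2 library, and Arf-C was called (log2 -0.39, SE 0.12, adjusted p = 0.0126) where Arf-B was not (log2 -0.17, adjusted p = 0.271). All 3 lines kept a similar share of Dppa2 at day 8, with means of 31.4%, 29.8% and 29.1% in Arf-B, Arf-C and Ctrlv2 cells.

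**Figure D2:**
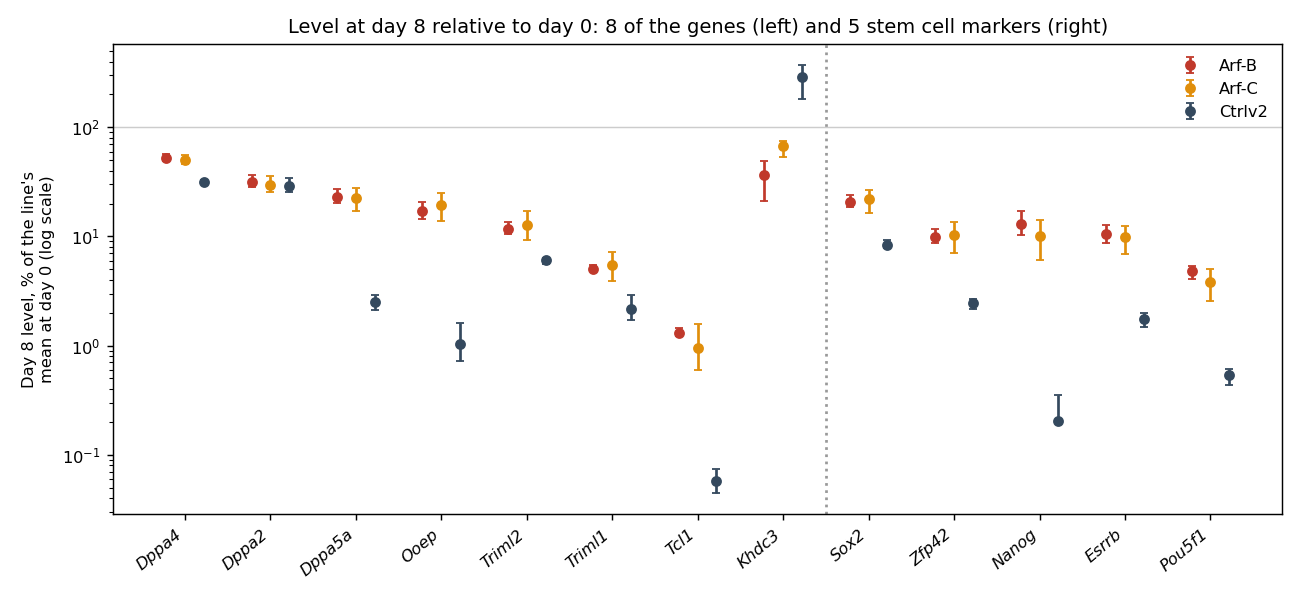
The day 8 level of 8 of the genes and of 5 stem cell markers is shown as a percent of the mean of the same line at day 0 (vertical log axis), with points for means over 3 libraries and whiskers to the lowest and highest library (the lowest Nanog library of Ctrlv2 is at 0 and has no lower whisker). Dppa2 lies at 29.1% to 31.4% in all 3 lines, Dppa5a at 22.9%, 22.3% and 2.50% in Arf-B, Arf-C and Ctrlv2, and Khdc3 at 291% in Ctrlv2.

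The ratio of Dppa4 to Dppa2, both per length in FPKM, therefore differed by line. At day 8 it was 2.21 (1.85 to 2.63) in Arf-B, 2.49 (2.32 to 2.70) in Arf-C and 1.38 (1.16 to 1.53) in Ctrlv2 cells, as the geometric mean and range of 3 libraries. No Arf library overlapped the Ctrlv2 range. At day 0 it was 1.32 (1.28 to 1.36), 1.47 (1.41 to 1.575) and 1.26 (1.23 to 1.32) in Arf-B, Arf-C and Ctrlv2 cells. There too the Arf-C range lay above that of Ctrlv2, while that of Arf-B overlapped it. The 2-sided exact permutation test of 3 against 3 libraries gave p = 0.1 for either line at day 8, the smallest it allows, and 0.169 after adjustment over 27 such tests, so this test of 3 against 3 cannot go below 0.05.

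**Figure D3:**
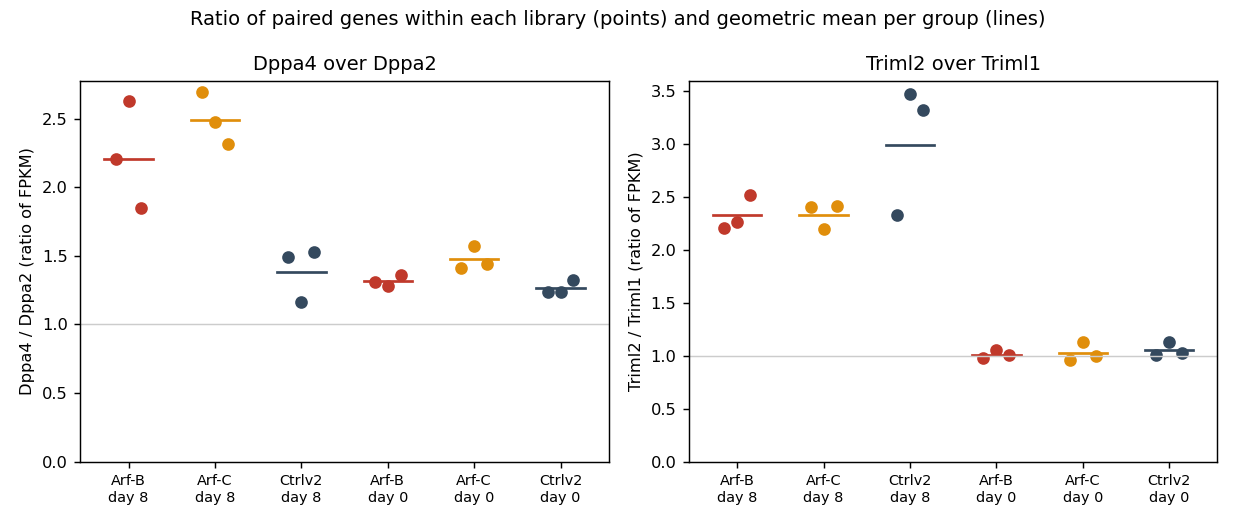
Ratios of FPKM within a library (linear vertical axes) are plotted for Dppa4 over Dppa2 and for Triml2 over Triml1 by line and day, with points for libraries and lines for the geometric mean of 3. Dppa4 over Dppa2 is highest in the Arf lines at day 8 (1.85 to 2.70), and Triml2 over Triml1 is near 1 at day 0 and 2.19 to 3.47 at day 8.

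In mouse stem cells Dppa2 and Dppa4 are known activators of Dux and of the transcripts of the 2-cell embryo. The table held 13 such genes, of which 10 were tested. All 10 rose in Ctrlv2 cells by day 8 (33.9% of all genes did), while 7 rose in Arf-B (32.9%) and 8 in Arf-C (32.8%). However, the 13 genes together summed to 0.0302 to 1.67 FPKM per library at day 0 and 17.1 to 48.1 FPKM at day 8. Most could therefore pass the filter only through day 8 libraries. The counts of rises were largely fixed by that filter and cannot be weighed against the shares over all genes. Zscan4d was at 7.83 ± 2.27, 7.56 ± 3.10 and 11.5 ± 1.68 FPKM in Arf-B, Arf-C and Ctrlv2 cells at day 8, against 0.210 ± 0.098, 0.0402 ± 0.041 and 0.174 ± 0.14 FPKM in the same lines at day 0. Against Ctrlv2 at day 8, 2 of the 10 were lower in Arf-B (16.9% of all genes were, a share near that of the list) and 4 in Arf-C (16.8%), among them Tcstv3 (log2 -0.81 and -0.73, SE 0.12) and Tdpoz4 (log2 -0.57 and -0.60, SE 0.13). These genes have near-identical copies, so counts of single members are uncertain.

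Dppa3 was hardly present. It had 1, 1 and 2 reads in Arf-B, 1, 2 and 0 reads in Arf-C and 0, 0 and 0 reads in Ctrlv2 cells at day 8. Its day 0 counts were 2, 11 and 6 reads in Arf-B, 2, 12 and 15 reads in Arf-C and 13, 3 and 12 reads in Ctrlv2 cells. A count of 0 in the 3 Ctrlv2 libraries allows up to 0.218, 0.317 and 0.266 FPKM (3 reads each). No difference between lines was detectable at this depth. Uhrf1, the methylation factor that Dppa3 restrains, was at 51.65 ± 1.73, 52.6 ± 1.95 and 61.9 ± 0.81 FPKM in Arf-B, Arf-C and Ctrlv2 cells at day 8 and was called lower in Arf-B (log2 -0.26, SE 0.08, adjusted p = 0.0256) and in Arf-C (log2 -0.23, SE 0.08, adjusted p = 0.0429). Of 8 DNA methylation genes all were tested, with 1 higher and 3 lower in Arf-B and 1 higher and 2 lower in Arf-C at day 8. Over all genes 33.2% were called in Arf-B (16.3% higher, 16.9% lower) and 33.6% in Arf-C (16.8% each way). The list as a whole was not tested against all genes. Dnmt3b, a de novo methyltransferase gene, was the higher one (log2 0.57 and 0.52), and Dnmt3l, the gene for its cofactor, lay furthest below Ctrlv2 (log2 -0.997 and -1.11).

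Tcl1, for the Akt coactivator, made the steepest fall. At day 8 it was at 1.01, 0.846 and 0.863 FPKM in Arf-B, 0.524, 0.570 and 1.40 FPKM in Arf-C and 0.0703, 0.0510 and 0.0428 FPKM in Ctrlv2 cells. The Ctrlv2 values rest on 2, 1 and 1 reads, against 110 reads in the 3 Arf-B and 75 in the 3 Arf-C libraries. The ratio of depth-scaled reads was 16.3 (95% interval 6.17 to 60.7) in Arf-B and 14.6 (5.49 to 55.1) in Arf-C. On the scale of log2(FPKM + 1), which shrinks so low a gene, the changes were 0.85 and 0.76 (SE 0.14, adjusted p = 0.000209 and 0.000536), and with a pseudocount of 0.1 they were 2.70 and 2.47. Its day 0 values were 66.5, 74.9 and 67.2 FPKM in Arf-B, 80.5, 99.1 and 84.8 FPKM in Arf-C and 101.8, 82.0 and 103.4 FPKM in Ctrlv2 cells. Arf-B lay below all 3 Ctrlv2 libraries and was called lower (log2 -0.45, SE 0.14, adjusted p = 0.0172), but not with a pseudocount of 0.1 (0.142), nor when replicate 1 or 3 of Ctrlv2 (0.0643 and 0.0704) or of Arf-B (0.056 and 0.0509) was left out. Arf-B cells kept 1.30% ± 0.13, Arf-C cells 0.943% ± 0.56 and Ctrlv2 cells 0.0572% ± 0.015 of the day 0 mean.

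Among relatives of these genes (5 Tcl1b genes, Mtcp1, 3 Khdc1 genes and Dppa1) only Mtcp1 passed the filter, and limma called it in none of the comparisons of lines or days. It was at 0.984 ± 0.11, 1.23 ± 0.34 and 0.883 ± 0.23 FPKM in Arf-B, Arf-C and Ctrlv2 cells at day 8. Akt1, the gene of a kinase that Tcl1 coactivates, lay below Ctrlv2 in Arf-B and Arf-C cells, by log2 -0.55 and -0.51 (SE 0.07) at day 8 and by log2 -0.75 and -0.62 (SE 0.07) at day 0.

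Triml1, whose product is known in the mouse blastocyst, was at 2.91, 2.95 and 3.26 FPKM in Arf-B, 2.47, 3.39 and 4.53 FPKM in Arf-C and 1.65, 0.978 and 1.10 FPKM in Ctrlv2 cells at day 8. Triml2, whose human counterpart has been linked to modification of p53, was at 6.41, 6.67 and 8.23 FPKM in Arf-B, 5.93, 7.44 and 10.9 FPKM in Arf-C and 3.85, 3.39 and 3.66 FPKM in Ctrlv2 cells. In both genes every Arf library lay above every Ctrlv2 library. For Triml1 the log2 fold changes were 0.86 and 0.98 (SE 0.13, adjusted p = 0.00014 and 4.17e-05), and for Triml2 they were 0.80 and 0.94 (SE 0.14, adjusted p = 0.000534 and 0.000134). At day 0 neither gene was called in either line: Triml1 averaged 60.1 ± 5.08, 62.6 ± 3.30 and 56.9 ± 2.29 FPKM, and Triml2 averaged 60.8 ± 4.99, 64.1 ± 2.00 and 60.01 ± 5.53 FPKM in Arf-B, Arf-C and Ctrlv2 cells.

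The pair was level in stem cells and uneven after differentiation. Triml2 over Triml1 was 1.01, 1.03 and 1.05 at day 0 and 2.33, 2.33 and 2.99 at day 8 in Arf-B, Arf-C and Ctrlv2 cells. In each line the day 8 ratios lay above the day 0 ratios (exact permutation p = 0.1, the smallest 3 against 3 allows, and 0.169 adjusted over 27 tests). Between lines at day 8 the ratios overlapped (p = 0.2 for Arf-B and 0.3 for Arf-C, exact permutation). Triml1 fell further in every line, Arf-B cells keeping 5.06%, Arf-C cells 5.53% and Ctrlv2 cells 2.19% of it, beside 11.7%, 12.6% and 6.05% of Triml2 in the same lines.

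**Figure D4:**
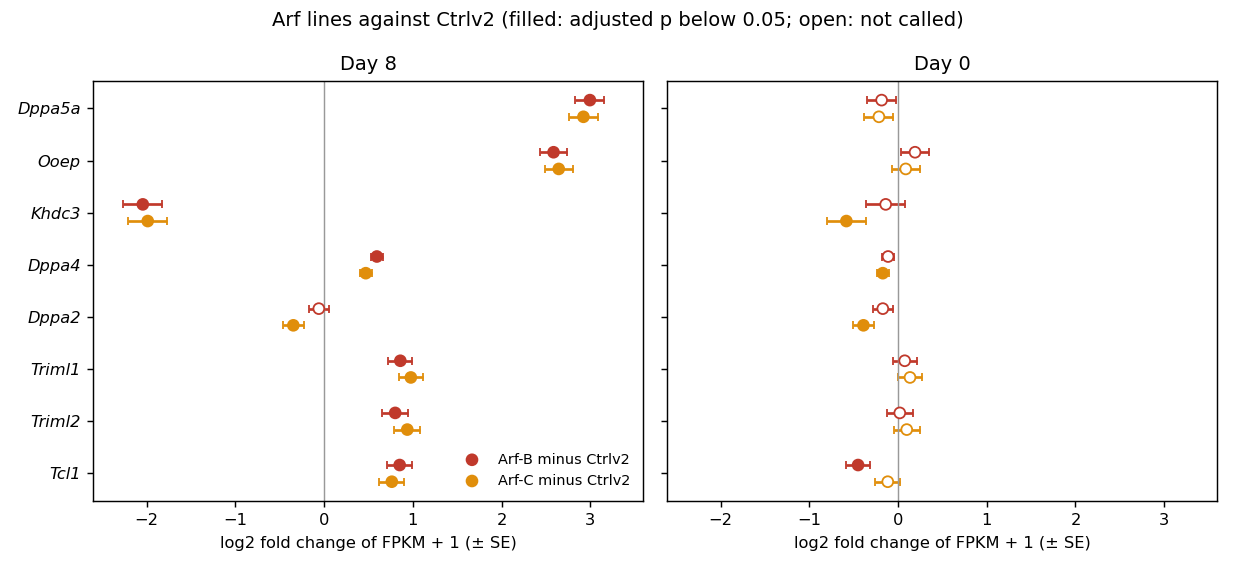
Log2 fold changes of FPKM + 1 (horizontal axis, Arf line minus Ctrlv2) with standard errors are shown at day 8 and day 0 for the 8 tested genes, filled where called by limma and open where not. At day 8 Dppa5a lies at 3.00 and 2.92 and Khdc3 at -2.04 and -1.99, while at day 0 all values lie between -0.58 and 0.19.

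At day 0 the lines differed little in these genes. Arf-B cells had 1 of 8 called lower (Tcl1) and 0 higher, where 39% of all genes tested were called, 20% lower and 19.1% higher. Arf-C cells had 3 of 8 lower (Dppa2, Dppa4 and Khdc3) and 0 higher, where 42.8% were called, 21.5% lower and 21.2% higher. At an unadjusted p below 0.05 the counts were the same, 1 and 3. Between the Arf lines, Arf-B against Arf-C, limma called 0 of 8 genes at day 8 and 0 of 8 at day 0, beside 0.0581% of all genes at day 8 (0.0349% higher, 0.0233% lower) and 0.343% at day 0 (0.105% higher, 0.238% lower). At an unadjusted p below 0.05 there was 1 at each day, Dppa2 at day 8 (log2 0.29, SE 0.12) and Tcl1 at day 0 (log2 -0.33, SE 0.14).

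Over time, 8 of 8 genes were called lower at day 8 in Arf-B, where 66.7% of all genes were called and 33.8% were lower. In Arf-C 7 of 8 were lower (66.6% of all genes called, 33.8% lower), and in Ctrlv2 7 of 8 (68.3% called, 34.4% lower), Khdc3 being the exception in both. The median log2 change of the 8 genes was -2.28, -2.22 and -4.21 in Arf-B, Arf-C and Ctrlv2 cells, beside -0.02, -0.02 and -0.01 over all genes. In Ctrlv2 the changes ran from -6.51 (Tcl1), -5.31 (Dppa5a), -4.82 (Ooep), -4.70 (Triml1) and -3.72 (Triml2) to -1.74 (Dppa2) and -1.63 (Dppa4). The test of the difference between day responses called 6 of 8 genes higher in Arf-B than in Ctrlv2 and 1 lower, where 33.5% of all genes were called (17.5% higher, 16.1% lower). In Arf-C it likewise called 6 and 1, where 38.3% were called (19.4% and 18.9%). Dppa5a differed by log2 3.18 and 3.14 (SE 0.23, adjusted p = 1.46e-07 and 1.27e-07) and Ooep by log2 2.39 and 2.56 (SE 0.22), or 3.78 and 3.95 with a pseudocount of 0.1. Khdc3 was the lower one (log2 -1.90 and -1.41, SE 0.31, adjusted p = 0.000263 and 0.00244). Dppa2 showed no called difference in its day response (log2 0.11 and 0.04, SE 0.16, adjusted p = 0.642 and 0.865).

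The order of the genes by FPKM also shifted. At day 0 Dppa5a stood far above the rest in all lines, and Tcl1, Dppa4, Dppa2, Triml2 and Triml1 followed between 56.1 and 95.7 FPKM, several neighbours in that order overlapping. Ooep came next at 38.15 to 43.6 FPKM, above Khdc3 and Dppa3. At day 8 Dppa5a, Dppa4 and Dppa2 led in every line, each apart from the next. In Arf-B and Arf-C cells Ooep and Triml2 overlapped at ranks 4 and 5 and Khdc3 had rank 8. In Ctrlv2 cells Khdc3 had rank 4, overlapping Triml2, and Ooep had rank 7. The 9 genes summed to 642.6 ± 93.8, 615.1 ± 140.6 and 131.5 ± 10.9 FPKM in Arf-B, Arf-C and Ctrlv2 cells at day 8, of which Dppa5a made up 86.7%, 87.0% and 52.3%.

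At day 8 replicate 3 was the highest library for 6 of the 9 genes in Arf-B, Dppa3 at 2 reads included, and for 7 of 9 in Arf-C. It was also the highest for 5 of 5 stem cell markers in each Arf line. In Ctrlv2 replicate 1 was the highest for 5 of the 8 genes with reads, and replicate 3 for 4 of 5 markers. The calls of Dppa5a, Ooep, Dppa4, Tcl1, Triml1, Triml2 and Khdc3 at day 8 were kept in both lines without replicate 3, as without any other single library. Beside the markers, the share kept at day 8 was 20.9%, 22.01% and 8.30% for Sox2, 12.9%, 10.2% and 0.205% for Nanog, and 4.86%, 3.79% and 0.537% for Pou5f1 in Arf-B, Arf-C and Ctrlv2 cells. Dppa4 thus kept a larger share than any of the 5 markers in every line, and Tcl1 a smaller one, as described without a test.

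Over all genes tested, 16.3% were higher and 16.9% lower than Ctrlv2 in Arf-B at day 8, and 16.8% each way in Arf-C. Of 11 naive pluripotency genes 9 were higher at day 8 in each Arf line and 0 lower, led by Nanog (log2 4.55 and 4.44, SE 0.29) and Esrrb (log2 2.13 and 2.16, SE 0.16). Nanog, Esrrb and Zfp42 of this list are also among the stem cell markers counted above. Of 7 other stem cell transcripts 6 were higher in Arf-B and 5 in Arf-C, among them Utf1 at 36.2 ± 5.05, 42.7 ± 9.48 and 9.33 ± 1.38 FPKM in Arf-B, Arf-C and Ctrlv2 cells. Their median log2 fold changes in Arf-B and Arf-C were 1.75 and 1.67 for the naive list and 1.37 and 1.26 for the other list, against 0.83 and 0.85 for the 8 genes described here. Most genes of all 3 lists fell by day 8 in every line.

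By pattern over the 18 libraries, Dppa5a and Ooep were nearest to each other and shared Mylpf, a muscle myosin gene, among their 3 nearest. Nearest to Ooep after Dppa5a was Utf1 (root mean square difference 0.29), a chromatin protein gene of stem cells. Nearest to Dppa4 was Msh6, a mismatch repair gene (0.089), and nearest to Dppa2 was Nmnat2 (0.14). Dppa4 stood at rank 433 in likeness to Dppa2, at 0.38. Triml1 lay nearest to Pecam1 (0.18) and Klf4 (0.19), and Triml2 to Hsf2bp (0.18). Tcl1 lay nearest to Tdh, the threonine dehydrogenase gene (0.30), and Khdc3 to Rnf14 (0.37).

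Within 250 kb of the 9 genes 43 other genes were tested. At day 8, 13 were higher and 5 lower than Ctrlv2 in Arf-B, and 10 higher and 6 lower in Arf-C, beside 33.2% of all genes called in Arf-B (16.3% higher, 16.9% lower) and 33.6% in Arf-C (16.8% each way). Zfp42, beyond Triml2, was higher (log2 1.53 and 1.67, SE 0.17), as were Morc1 beside Dppa2 and Dppa4 (log2 0.67 and 0.57, SE 0.10) and Nanog and Gdf3 near Dppa3. Eef1a1, the elongation factor gene beside Dppa5a and Ooep, was lower (log2 -0.29 and -0.22, SE 0.08). Gsta4, also within 250 kb of both, lay higher in the Arf lines, at 109.2 ± 0.47, 109.5 ± 5.14 and 75.7 ± 2.76 FPKM in Arf-B, Arf-C and Ctrlv2 cells, with no overlap. The named genes around Dppa5a and Ooep thus went in both directions.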

How the data were processed

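Polyadenylated RNA was sequenced from 18 libraries, 3 in each of 6 groups of line and day. The authors deposited FPKM values, which are scaled to gene length and library size, for 54532 genes. The submitters' processing notes name HISAT2, featureCounts, DESeq2 and mm10. The sources used here do not give a strand setting or tool versions. Each deposited value times gene length was a whole multiple of a step fixed within its library for 100% of values (tolerance 0.001 reads), which gave the reads behind each value. No 2 replicates agreed within sampling noise (lowest chi-square per gene 4.21 over 18 pairs).

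Tests used limma 3.58.1 in R 4.3.3 (statmod 1.5.0) on log2(FPKM + 1), for 17200 genes with at least 0.5 FPKM in 3 or more libraries. The model had 1 coefficient per group over all 18 libraries and moderated variances (eBayes with trend and robust). Benjamini-Hochberg adjustment of p-values ran over all 17200 genes, with calls below 0.05. A fold change on this scale understates low genes. For single ratios a 2-sided exact permutation test over libraries was used. Tables and figures were made in Python 3.11.15 (pandas 2.3.3, numpy 2.4.6, matplotlib 3.10.9). Alternatives were a pseudocount of 0.1, no filter, a mean of at least 1 FPKM, 2 other scalings, the compared groups alone, thinned reads, plain moderation, a replicate block and leaving out each library.

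The members and gene lists were chosen with earlier results of these data known. Named were all members, the 3 genes most alike to each tested one (mean of at least 1 FPKM), genes within 250 kb as counts, and of each list up to 3 called genes of largest change or the 2 most abundant. Genes named outside this rule, after their values were seen, are those given for background or as neighbours: Zfp42, Morc1, Gdf3, Eef1a1, Gsta4, Uhrf1, Foxa2, Tle6, Zp3, Nlrp5, Padi6, Gm20509, Dppa5b and Dppa5c. The tests were first tried on simulated data. Some listed genes are not reported here.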

Additional observations from a re-analysis of the deposited data

Results flagged for a closer look

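The change from day 0 to day 8 differed between each Arf line and Ctrlv2 for 7 of the 8 tested genes by the interaction test of limma. The same test called 33.5% of all genes in Arf-B and 38.3% in Arf-C. In Arf-B the differences in log2 change against Ctrlv2 were 3.18 for Dppa5a, 2.39 for Ooep, 1.30 for Tcl1, 0.78 for Triml1, 0.78 for Triml2, 0.71 for Dppa4 and -1.90 for Khdc3. In Arf-C they were 3.14 for Dppa5a, 2.56 for Ooep, 0.88 for Tcl1, 0.84 for Triml1, 0.84 for Triml2, 0.64 for Dppa4 and -1.41 for Khdc3. With a pseudocount of 0.1 the differences were 3.78 for Ooep, 3.15 for Tcl1 and 1.18 for Triml1 in Arf-B, and 3.95 for Ooep, 2.59 for Tcl1 and 1.26 for Triml1 in Arf-C. Both sets use the same 6 Ctrlv2 libraries. Since groups held 3 libraries each, no library was tested for standing apart from its group.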

How the results depend on the processing

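Of 56 called values of single genes 52 kept their call and direction in all 15 to 21 alternatives, and the 4 that did not are Tcl1 in Arf-B at day 0, Dppa4 and Khdc3 in Arf-C at day 0 and Dppa2 in Arf-C at day 8. The count of genes called in Arf-B at day 0 (1) became 0 with a pseudocount of 0.1 and ran from 0 to 1 when 1 library was left out. The count in Arf-C at day 0 (3) became 1 without the filter, 1 at the same sum of FPKM and 1 with thinned reads, and ran from 1 to 2 when 1 library was left out. Of 32 values that were not called, 12 turned sign. At the same sum of FPKM Dppa2 in Arf-B at day 8 became 0.0577. With 1 library left out, these log2 values ran from -0.162 to 0.0542 for Dppa2 in Arf-B against Ctrlv2 at day 8, from -0.342 to 0.0254 for Khdc3 and from -0.0474 to 0.0885 for Triml2 in Arf-B against Ctrlv2 at day 0, and from -0.0814 to 0.16 for the difference in the day response of Dppa2 in Arf-C. Between Arf-B and Arf-C they ran at day 8 from -0.10 to 0.24 for Dppa5a, -0.26 to 0.12 for Ooep, -0.16 to 0.0747 for Khdc3, -0.0277 to 0.30 for Tcl1, -0.29 to 0.049 for Triml1 and -0.31 to 0.0772 for Triml2, and at day 0 from -0.0829 to 0.16 for Dppa5a and -0.12 to 0.0042 for Triml1. The cause was not tested.

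A pseudocount of 0.1 moved several called values by over 1.5 times without ending the call, among them Khdc3 over time in Arf-B (-1.33, against -0.75) and Tcl1 in the day response of Arf-B (3.15, against 1.30). Scaling to the same sum of FPKM moved the median of all genes by up to 0.135 (Arf-B over time, against -0.02) and the share of higher calls over time to 62.6%, against 49.4%, in Arf-B and to 60.5%, against 49.2%, in Arf-C. It moved the share in the difference of day responses to 64.3%, against 52.1%, in Arf-B, and that between the Arf lines at day 0 to 43.5%, against 30.5%. The replicate numbers did not pair the samples (correlations of -0.25 to 0.20 over 15 pairs of groups, in none of which all exceeded 0.1). With the replicate block the counts of genes called stayed as they were, with 7 for Arf-B and 8 for Arf-C at day 8, set against Ctrlv2. Few reads stand behind Dppa3, behind Tcl1 and Ooep in Ctrlv2 at day 8 and behind Khdc3, so depth limits these values.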

Other observations

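Dppa5a stood in a different proportion to Ooep at day 8, at 75.6 (72.9 to 78.1) in Arf-B, 68.8 (65.5 to 73.7) in Arf-C and 186 (94.98 to 292.4) in Ctrlv2 cells, as ratios of FPKM, while at day 0 it was 55.7, 58.8 and 72.6. The wide range in Ctrlv2 rests on 8 to 14 reads of Ooep per library. Among neural markers 1 of 5 was higher and 3 lower in each Arf line at day 8 (over all genes 16.3% and 16.9% in Arf-B and 16.8% each way in Arf-C), and among trophoblast markers Cdx2 alone was called, higher in both (log2 0.58 and 0.69).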
